A study of Mus musculus with 14 samples.

Results

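The genes described here are the AP-1 transcription factors Fos, Fosb, Fosl1, Fosl2, Jun, Junb, Jund and Batf together with Atf3, measured by RNA sequencing in mouse skin. They were chosen by name, and all 9 were found in the count table of 56953 genes and were among the 16027 genes tested. Each of the 14 libraries was made with a QuantSeq forward kit, which reads 1 tag near the 3′ end of a polyadenylated transcript, so a count follows the number of transcripts and was not divided by gene length. Levels are given as CPM, tag counts per 1000000 tags of a library whose size was adjusted by TMM. The tags do not separate isoforms of one gene, such as the long and short forms of Fosb.

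The libraries form 6 groups. Wild type C57BL/6J skin, called WT, had 2 libraries with the label DMSO and 2 with imiquimod. Skin of NEDD8fl/fl mice without the K14-CreERT recombinase, called Cre-negative, had 3 libraries with DMSO and 2 with imiquimod. Skin of NEDD8fl/fl mice with K14-CreERT, called knockout, also had 3 with DMSO and 2 with imiquimod. K14-CreERT is driven by a keratin promoter active in basal keratinocytes, so other cells of the skin are expected to keep Nedd8, which encodes a ubiquitin-like protein that activates cullin-RING ubiquitin ligases. Knockout mice were induced for 5 days before the start, and the labels name no induction of the other genotypes. Imiquimod, an activator of Toll-like receptor 7 used to provoke psoriasis-like inflammation, was given as a 5% cream each day from day 0 to day 7. The labels allow for the back or the ear as the site of the cream without tying a site to a library, and give no age. Nothing in them ties a library to an animal, so the p-values measure the spread between these samples, which may be technical.

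AP-1 is a dimer of leucine-zipper proteins. Fos proteins must pair with a Jun protein to bind DNA, whereas Jun proteins can also pair among themselves. Many of these genes are switched on within minutes of a growth factor, cytokine or stress signal through MAP kinases, and the proteins are short-lived substrates of ubiquitin ligases. In epidermis AP-1 sites control keratins, cornified envelope proteins and matrix proteases, and mice that lose Junb and Jun in the epidermis develop a psoriasis-like disease. Batf is a small zipper protein known mainly from leukocytes, and Atf3 is a stress-induced member of the related ATF family that can pair with Jun proteins.

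The libraries held 5552954 to 34362477 counted tags, of which the 9 genes took 0.0430% to 0.186%. The gene with symbol Rn18s-rs5, an 18S ribosomal RNA sequence, took 3.84% to 17.5% of the tags in 13 libraries and 19.1% in Cre-negative imiquimod replicate 2. Knockout DMSO replicate 1 was the other library with a high share, at 17.5%, and was also the shallowest. Nedd8 itself was at 147 to 375 CPM in the 5 knockout libraries and at 203 to 684 CPM in the 9 others, and it did not pass the test in any comparison (edgeR adjusted p = 0.403 for knockout and Cre-negative skin under DMSO and 0.326 under imiquimod), so the tags did not show the deletion, and a 3′ tag may lie outside the deleted part. Xist and Y-linked tags marked all WT and all knockout DMSO libraries as female and all knockout and Cre-negative imiquimod libraries as male. Cre-negative DMSO skin had 2 male libraries and 1 female one. Sex and imiquimod therefore cannot be told apart in knockout skin. Keratinocyte markers, 10 genes including Krt5 and Krt14, were detected in every library, at a summed level of 6158 to 21098 CPM.

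The genes lie on 7 chromosomes (positions on GRCm39, from the deposited table). Fos lies on chr12:85520664-85524047 and Batf on chr12:85733443-85755861, both on the plus strand. Junb lies on the minus strand of chr8:85703539-85705347 and Jund on the plus strand of chr8:71151599-71153265. Fosb is at chr7:19036621-19043976 (minus), Fosl1 at chr19:5497575-5505974 (plus), Fosl2 at chr5:32293145-32315186 (plus), Jun at chr4:94937271-94940459 (minus) and Atf3 at chr1:190902493-190950236 (minus). Exons of Fosl1 overlap those of Ccdc85b on the other strand, and the strand setting of the count is not given in the sources used here. Over all libraries Ccdc85b had 1429 tags and Fosl1 3952.

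The 250 bases before the transcription start are shown for the 5 genes of this set that carry the results on imiquimod below and whose RefSeq start also lies at a transcript start of the annotation used. They come from RefSeq on GRCm38.p6, a build other than that of the counts, and run 5′ to 3′ on the gene's strand. The windows are chr12:85473640-85473889 (plus) for Fos, chr4:95052223-95052472 (minus) for Jun, chr12:85686470-85686719 (plus) for Batf, chr7:19310046-19310295 (minus) for Fosb and chr1:191183334-191183583 (minus) for Atf3. Capitals mark matches to TGACG on either strand, to TGACNTCA on either strand, or to TATAAA on the gene's own strand.
Fos: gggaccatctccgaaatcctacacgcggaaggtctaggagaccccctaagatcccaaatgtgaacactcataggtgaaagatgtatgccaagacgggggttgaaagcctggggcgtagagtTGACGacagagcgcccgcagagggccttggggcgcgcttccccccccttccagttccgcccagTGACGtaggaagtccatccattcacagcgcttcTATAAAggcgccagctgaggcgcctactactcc
Jun: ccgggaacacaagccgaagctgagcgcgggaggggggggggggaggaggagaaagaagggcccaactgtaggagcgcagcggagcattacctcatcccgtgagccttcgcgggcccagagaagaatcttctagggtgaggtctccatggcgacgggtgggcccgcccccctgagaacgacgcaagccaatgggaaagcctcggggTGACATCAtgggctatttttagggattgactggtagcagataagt
Batf: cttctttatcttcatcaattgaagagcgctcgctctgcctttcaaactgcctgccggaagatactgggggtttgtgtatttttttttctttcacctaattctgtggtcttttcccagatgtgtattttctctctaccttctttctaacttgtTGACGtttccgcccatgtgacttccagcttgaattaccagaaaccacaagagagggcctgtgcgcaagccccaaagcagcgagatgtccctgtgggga
Fosb: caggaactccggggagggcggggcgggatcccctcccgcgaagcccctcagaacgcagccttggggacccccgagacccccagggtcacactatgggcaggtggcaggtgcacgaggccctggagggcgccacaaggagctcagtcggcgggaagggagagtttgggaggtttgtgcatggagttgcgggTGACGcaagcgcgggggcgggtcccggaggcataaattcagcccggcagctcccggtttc
Atf3: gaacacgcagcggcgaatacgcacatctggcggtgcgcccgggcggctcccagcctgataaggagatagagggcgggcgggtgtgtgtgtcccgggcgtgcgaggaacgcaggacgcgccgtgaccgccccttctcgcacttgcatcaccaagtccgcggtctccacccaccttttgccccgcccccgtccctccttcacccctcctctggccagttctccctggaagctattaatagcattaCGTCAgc
In these windows TGACG, the first part of a cyclic AMP response element, was found in Fos, Fosb, Batf and, as its complement CGTCA, in Atf3. Jun held TGACATCA, a match to TGACNTCA, 45 to 38 bases before its start. The match in Atf3 lay 7 to 3 bases before the start, and that in Fosb 60 to 56 bases. Fos held TGACG at 129 to 125 and at 66 to 62 bases and the TATA motif TATAAA at 33 to 28 bases before the start. Of the 9 genes, 8 had an entry in the table of promoters, and TGACG was in 5 of these 8 (Junb was the other), against 17.8% of 32851 promoter windows of the same length. TGACNTCA was in 1 of 8 against 7.49% of windows, and TATAAA in 1 of 8 against 7.59%. The classical AP-1 site TGANTCA (in 6.75% of windows), the full element TGACGTCA (1.55%), whose matches are also matches of TGACNTCA and TGACG, and the CArG box of serum response factor (1.47%) were in 0 of 8. TGACG and TGACNTCA were added to the search after the sequences had been read.

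Imiquimod raised several of the 9 genes in the skin of controls, and knockout skin already had a high level of Fosl1 without it. In Cre-negative skin, 5 of the 9 genes rose with imiquimod (Fos, Fosl1, Jun, Junb and Batf) and 0 fell, where 8.15% of all genes tested rose and 10.1% fell. In WT skin 4 rose (Fosl1, Jun, Junb and Batf), where 9.59% of all genes rose, and 2 fell (Fosb and Atf3), where 11.8% of all genes fell. In knockout skin 1 rose, Batf, and 0 fell, against 8.56% and 2.52% of all genes. The median log2 change of the 9 genes was 1.14 in Cre-negative, 0.89 in WT and 0.99 in knockout skin, and that of all genes −0.06, −0.09 and −0.04. Scaled by library size alone, the calls over all genes shifted from 1307 higher and 1614 lower to 537 and 3141 in Cre-negative skin, from 1537 and 1896 to 551 and 3608 in WT skin and from 1372 and 404 to 1429 and 186 in knockout skin.

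Between genotypes, Fosl1 was the 1 gene of the 9 that was higher in knockout than in Cre-negative skin with DMSO, where 14% of all genes were higher and 15.7% lower, and 0 of the 9 were lower. It was also the 1 gene higher with imiquimod, where 11.6% of all genes were higher and 6.33% lower, and again 0 were lower. Against WT skin with DMSO, a comparison between female libraries, Fosl1 was higher in the knockout and Fosb and Atf3 were lower, where 11.3% of all genes were higher and 14.4% lower. This comparison shares its knockout libraries with the first one. The imiquimod response of the knockout differed from that of Cre-negative skin in 0 of the 9 genes, where it was higher for 14% and lower for 9.63% of all genes. Before adjustment 0 of the 9 had a p under 0.05 in that contrast in edgeR's test, and DESeq2 called 0. Scaling by library size alone called 2, Atf3 and Batf, both higher. The same difference from the WT response, a comparison added after the values of Fosb and Atf3 had been seen, was higher for Fosb and Atf3 and lower for Jun, where 15.1% of all genes were higher and 12.1% lower. Library size alone shifted the calls over all genes from 2243 higher and 2509 lower to 1183 and 3378 for knockout against Cre-negative skin under DMSO, from 1852 and 1014 to 2443 and 496 with imiquimod, and from 1805 and 2302 to 842 and 3365 against WT skin. For the difference of responses it shifted them from 2242 and 1543 to 3650 and 511 against Cre-negative and from 2414 and 1935 to 3974 and 607 against WT skin.

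**Figure D1:**
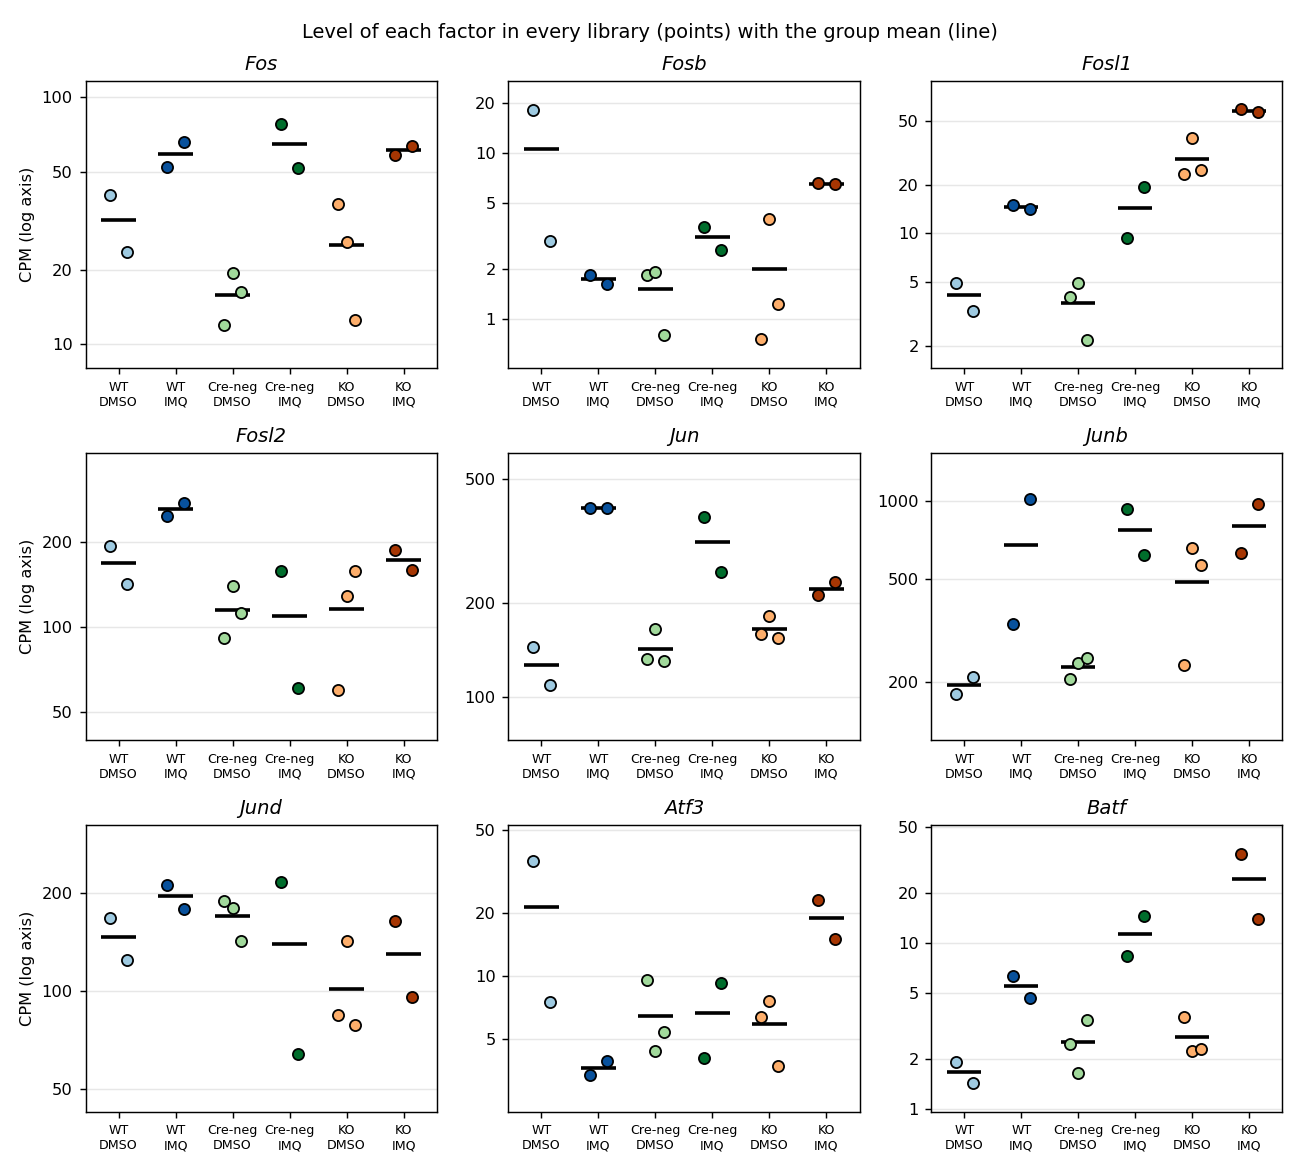
CPM of each gene on a log axis in every library (points, in the order of the replicate numbers) with the group mean (line), for 6 groups of 2 or 3 libraries. The 5 knockout libraries sit at the top of the Fosl1 panel, from 23.4 to 58.7 CPM, and WT DMSO replicate 1 stands apart in the Fosb and Atf3 panels.

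Of the Fos family, Fosl1, which encodes Fra-1, differed most between genotypes. In Cre-negative skin with DMSO it was at 4.03, 4.92 and 2.19 CPM, and in WT skin with DMSO at 4.92 and 3.32 CPM. In knockout skin with DMSO it was at 23.4, 38.9 and 24.9 CPM. Every knockout DMSO library was thus above every control library, those with imiquimod included, and the lowest of the 3 rested on 92 tags. The difference was 2.96 ± 0.38 on the log2 scale against Cre-negative skin (value ± SE, adjusted p = 0.00012) and 2.83 ± 0.45 against WT skin (adjusted p = 0.00069). Ccdc85b, which overlaps it on the other strand, had a log2 difference of −0.97 from Cre-negative skin (adjusted p = 0.108).

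With imiquimod, Fosl1 was at 9.33 and 19.5 CPM in Cre-negative skin, 15 and 14.2 CPM in WT skin and 58.7 and 56.9 CPM in knockout skin. The rise passed the test in Cre-negative (1.96 ± 0.40, adjusted p = 0.0047) and WT skin (1.84 ± 0.45, adjusted p = 0.013), and in the knockout it was 0.99 ± 0.38 (adjusted p = 0.117). The difference between the knockout and Cre-negative responses was −0.97 ± 0.56 (adjusted p = 0.217). With imiquimod the knockout remained above Cre-negative skin by 1.99 ± 0.44 (adjusted p = 0.0085), but this call was lost without Cre-negative replicate 1 (1.49, adjusted p = 0.080) or without knockout replicate 1 (1.97, adjusted p = 0.052). Ccdc85b was also higher in that comparison (1.77, adjusted p = 0.041). The groups ran, by mean level, from knockout with imiquimod (57.8 CPM) over knockout with DMSO (29.1), WT with imiquimod (14.6), Cre-negative with imiquimod (14.4) and WT with DMSO (4.12) to Cre-negative with DMSO (3.71). The libraries of the imiquimod controls overlapped each other, as did those of the DMSO controls.

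Summed neutrophil markers were, like Fosl1, lowest in the 5 control libraries with DMSO, at 77.2 to 708.6 CPM. For this sum the order of the other groups differed. The sum was at 17202 to 63406 CPM in knockout skin with DMSO and 64123 to 192874 CPM in the imiquimod controls. In knockout skin with imiquimod it was at 54130 and 114227 CPM. Fosl1 was higher in both knockout groups than in the imiquimod controls. Gene by gene, 7 of the 10 neutrophil markers were higher and 0 lower in knockout than in Cre-negative skin with imiquimod. Their median was 4.36, and 11.6% of all genes were higher and 6.33% lower in that comparison. With DMSO 9 of the 10 were higher and 0 lower in knockout than in Cre-negative skin (median 5.69). There 14% of all genes were higher and 15.7% lower. Imiquimod raised 9 of the 10 and lowered 0 in Cre-negative (median 5.60) and in WT skin (median 5.60). Of all genes, 8.15% rose and 10.1% fell in Cre-negative skin, and 9.59% and 11.8% in WT skin. The order of groups by sum thus differed from that of these medians. All 10 neutrophil markers were detected in the knockout and in the imiquimod libraries, and Ly6g was at 0 in the control libraries with DMSO. Summed dendritic and Langerhans cell markers ran the other way, at 360 to 685 CPM in the controls with DMSO, 203 to 262 CPM in the imiquimod controls, 90.4 to 122 CPM in knockout skin with DMSO and 73.5 and 82.9 CPM in knockout skin with imiquimod. Of the 9 tested, 8 were lower and 0 higher in knockout than in Cre-negative skin with DMSO, with a median of −3.65. Of all genes, 15.7% were lower and 14% higher there. Cd207 was at 0 in the 3 knockout libraries with DMSO. The part of either cell type in the result was not tested. In bulk skin fewer cells of a type and less RNA per cell cannot be told apart, and the same holds for more of either.

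Fos, the founding member and an immediate early gene, was raised by imiquimod in Cre-negative skin. Its levels there were 12.0, 19.3 and 16.2 CPM with DMSO and 77.6 and 51.5 CPM with imiquimod. The groups did not overlap, and the log2 difference was 2.03 ± 0.41 (adjusted p = 0.0044). In WT skin Fos was at 40.2 and 23.5 CPM with DMSO and 52.1 and 65.9 CPM with imiquimod, a difference of 0.89 ± 0.45 that missed the threshold (adjusted p = 0.170). Knockout skin gave 36.9, 25.8 and 12.5 CPM with DMSO and 58.4 and 63.4 CPM with imiquimod (1.30 ± 0.41, adjusted p = 0.056). With imiquimod the 3 group means lay between 59.0 and 64.6 CPM and their libraries overlapped. The DMSO groups differed more, with means of 31.9 CPM in WT, 25.1 in knockout and 15.8 in Cre-negative skin, and the library ranges of neighbours in that order overlapped. Those of WT and Cre-negative skin, which are not neighbours, did not overlap, and these controls were not tested against each other. Fos in the knockout came close to the threshold, and it passed with DESeq2 (1.30, adjusted p = 0.030) and without knockout DMSO replicate 1 (1.73, adjusted p = 0.017). Of the 13 other settings it passed in 5 and not in 8, with values from 0.96 to 1.73 over all 13.

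Fosb was a gene of low counts, with 3 to 179 tags per library. In WT skin it was at 18 and 2.97 CPM with DMSO and 1.84 and 1.64 CPM with imiquimod. The log2 difference of −2.57 ± 0.79 (adjusted p = 0.035) rested on WT DMSO replicate 1, since without it the value was −0.68 (adjusted p = 0.580). In Cre-negative skin Fosb was at 1.85, 1.92 and 0.801 CPM with DMSO and 3.59 and 2.62 CPM with imiquimod (1.0 ± 0.72, adjusted p = 0.354). Knockout skin had 0.764, 3.98 and 1.24 CPM with DMSO, and 6.54 and 6.46 CPM with imiquimod (1.66 ± 0.70, adjusted p = 0.149). Among the imiquimod libraries those of the knockout were the highest, but the difference from Cre-negative skin was 1.08 ± 0.77 (adjusted p = 0.371). Knockout against WT skin with DMSO gave −2.33 ± 0.70 (adjusted p = 0.027), which became −0.50 (adjusted p = 0.696) without WT DMSO replicate 1.

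Fosl2, which encodes Fra-2, passed the test in 0 of the 8 comparisons. It was at 91.7 to 140.1 CPM in Cre-negative and 142 to 194 CPM in WT skin with DMSO, and at 59.9, 129 and 159 CPM in knockout skin. With imiquimod it was at 60.9 and 158 CPM in Cre-negative, 247 and 276 CPM in WT and 187 and 159 CPM in knockout skin. The lowest values, 59.9 and 60.9 CPM, came from the same 2 libraries that were highest in 18S RNA. Without them the imiquimod difference in Cre-negative skin moved from −0.07 to 0.53 on the log2 scale and did not pass the test.

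Of the Jun family, Jun was raised by imiquimod in both controls. In WT skin it was at 145 and 110 CPM with DMSO and 403 and 404 CPM with imiquimod, a difference of 1.67 ± 0.31 (adjusted p = 0.0030). Cre-negative skin gave 132, 166 and 131 CPM with DMSO and 378 and 252 CPM with imiquimod (1.14 ± 0.27, adjusted p = 0.012). In the knockout the levels were 159, 182 and 154 CPM with DMSO and 212 and 233 CPM with imiquimod. All 3 pairs of groups were separate, but in the knockout the difference was 0.43 ± 0.27 (adjusted p = 0.342). Under imiquimod the groups did not overlap, with WT highest and knockout lowest. The response in the knockout was smaller than in WT skin by 1.24 ± 0.41 on the log2 scale (value −1.24, adjusted p = 0.041), a call that was lost in 13 of 17 other settings. Against the Cre-negative response the difference was −0.71 ± 0.39 (adjusted p = 0.196).

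Junb, which restrains inflammation when present in epidermis, also rose with imiquimod in both controls. It was at 205, 237 and 248 CPM in Cre-negative skin with DMSO and at 930 and 619 CPM with imiquimod (1.75 ± 0.48, adjusted p = 0.022). In WT skin it was at 180 and 209 CPM with DMSO and at 335 and 1021 CPM with imiquimod (1.80 ± 0.54, adjusted p = 0.032). The WT imiquimod libraries lay far apart, though both were above their controls, and the value without WT imiquimod replicate 2 was 0.88 (adjusted p = 0.241). The Cre-negative call was lost in 6 of 13 other settings and the WT call in 5 of 12, 3 of them single libraries left out.

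Knockout skin with DMSO split for Junb: replicate 1 was at 234 CPM, within the Cre-negative range, and replicates 2 and 3 were at 661 and 564 CPM. The difference from Cre-negative skin was 1.08 ± 0.44 (adjusted p = 0.076), and 1.42 (adjusted p = 0.018) without replicate 1, the library of high 18S share and lowest depth. DESeq2 called it at the same size (1.08, adjusted p = 0.035). Of the 14 other settings, these included, it passed in 5 and not in 9. With imiquimod, knockout skin was at 632 and 973 CPM and Cre-negative skin at 930 and 619 CPM, so the groups overlapped (0.05 ± 0.53, adjusted p = 0.963).

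Jund, which is held to be more constant than its relatives, passed the test in 0 of the 8 comparisons. Its means ran from 196 CPM in WT skin with imiquimod to 102 CPM in knockout skin with DMSO, and the libraries of each group overlapped those of the next in that order. In Cre-negative skin with imiquimod its libraries were at 216 and 64.1 CPM, the lower one being the library with the highest 18S share. Knockout skin with DMSO was at 84.3, 143 and 78.7 CPM against 189, 179 and 143 CPM in Cre-negative skin (−0.74 ± 0.40, adjusted p = 0.180).

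The imiquimod values of Atf3 had the same sign as those of Fosb in WT and knockout skin. In Cre-negative skin the Fosb libraries were separate by treatment and those of Atf3 overlapped, and neither gene passed the test. In WT skin Atf3 was at 35.4 and 7.52 CPM with DMSO and at 3.34 and 3.90 CPM with imiquimod. The log2 difference was −2.56 ± 0.67 (adjusted p = 0.018), and −0.97 (adjusted p = 0.324) without WT DMSO replicate 1. Cre-negative skin showed no separation, with 9.56, 4.38 and 5.39 CPM under DMSO and 4.02 and 9.22 CPM under imiquimod (0.06 ± 0.59, adjusted p = 0.962). Knockout skin was at 6.37, 7.57 and 3.69 CPM with DMSO and 23.1 and 15 CPM with imiquimod. Those groups did not overlap, and the difference of 1.72 ± 0.58 had an adjusted p of 0.076 in edgeR and 0.038 in DESeq2 (1.73). Of the 13 other settings, DESeq2 included, it passed in 3 and not in 10. Both knockout imiquimod libraries were above both Cre-negative ones, with a difference of 1.5 ± 0.65 (adjusted p = 0.132).

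The difference of the imiquimod response between knockout and WT skin was 4.28 ± 0.89 for Atf3 (adjusted p = 0.0049) and 4.22 ± 1.06 for Fosb (adjusted p = 0.012). All knockout imiquimod libraries in this contrast are male and all others female. With a term for sex the values were 3.91 (adjusted p = 0.066) and 3.00 (adjusted p = 0.209). Without WT DMSO replicate 1 they were 2.71, which still passed, and 2.37 (adjusted p = 0.090). Knockout against WT skin with DMSO gave −1.88 ± 0.58 for Atf3 (adjusted p = 0.030), and −0.35 (adjusted p = 0.752) without that library.

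WT DMSO replicate 1 was not high in immediate early genes as a class. Of 33 other such genes, 14 were higher in replicate 1 and 19 in replicate 2 of that group. Egr1, a zinc-finger factor induced with Fos, was at 173 and 177 CPM, and the orphan receptor gene Nr4a1 at 27.6 and 29.9 CPM. Dusp1, a phosphatase that switches off MAP kinases, was at 167 and 106 CPM.

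**Figure D2:**
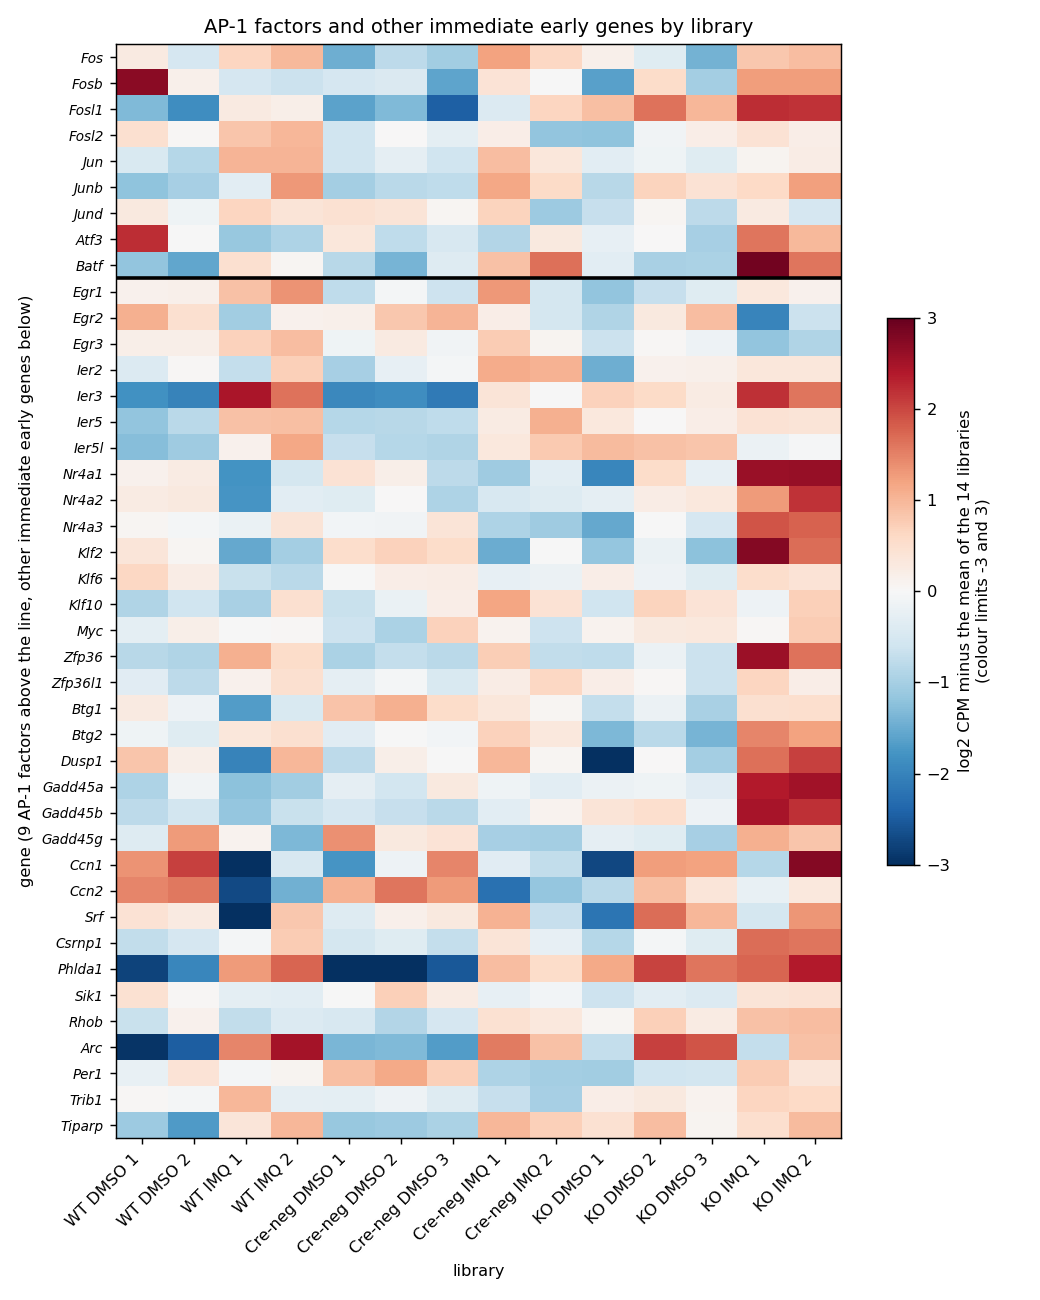
Log2 CPM (prior count 2) of the 9 genes and of 33 other immediate early genes in each of the 14 libraries, minus the gene's mean over the libraries, with colours limited to -3 and 3. Fosb and Atf3 stand out in WT DMSO replicate 1, where 14 of the 33 other genes were above the second replicate, and Batf in knockout imiquimod replicate 1.

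Batf was raised by imiquimod in all 3 genotypes. In knockout skin it was at 3.57, 2.23 and 2.28 CPM with DMSO and at 34.5 and 14 CPM with imiquimod (3.22 ± 0.46, adjusted p = 0.00075). In Cre-negative skin it was at 2.46, 1.64 and 3.42 CPM with DMSO and 8.32 and 14.5 CPM with imiquimod (2.20 ± 0.45, adjusted p = 0.0049), a call lost without Cre-negative imiquimod replicate 2 (1.73, adjusted p = 0.073). WT skin gave 1.91 and 1.44 CPM with DMSO and 6.36 and 4.68 CPM with imiquimod (1.74 ± 0.52, adjusted p = 0.031), a call lost in 5 of 12 other settings. In each genotype the imiquimod libraries lay above those with DMSO. The knockout response differed from that of Cre-negative skin by 1.03 ± 0.65 (adjusted p = 0.258) and from that of WT skin by 1.48 ± 0.69 (adjusted p = 0.123). Without imiquimod the means were 2.69 CPM in knockout, 2.51 in Cre-negative and 1.67 in WT skin. Knockout against Cre-negative skin gave 0.05 ± 0.43 (adjusted p = 0.941), with libraries that overlapped. Knockout against WT skin gave 0.65 ± 0.50 (adjusted p = 0.365), which did not pass the test although the libraries did not overlap.

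Leukocyte markers moved with Batf in part. The 10 mast cell and basophil markers summed to 642 and 1477 CPM in the knockout imiquimod libraries and to between 11.4 and 112.7 CPM in the 12 others, and all 10 were detected in knockout skin with imiquimod, while Tpsab1 was at 0 in 9 of the other libraries. Of the 8 tested between knockout skin with and without imiquimod, 2 were higher and 0 lower, with a median of −0.015. The 2 were Hdc (4.85, edgeR adjusted p = 2.8e-05) and Kit (1.88, edgeR adjusted p = 0.0395). Of all genes, 8.56% rose and 2.52% fell in that comparison. The 10 macrophage and monocyte markers, all detected in every library, summed to 1566 and 3164 CPM in knockout skin with imiquimod and to 233 to 893 CPM elsewhere. Gene by gene, imiquimod raised 8 of the 10 and lowered 0 in knockout skin (median 2.32), against 8.56% and 2.52% of all genes. In Cre-negative skin (median 0.17) and in WT skin (median 0.70), where Batf also rose, 1 of the 10 rose and 0 fell. The 10 markers of T and NK cells, in which Batf is best known, summed to 11.0 to 33.3 CPM in every group, and Trac was at 0 in 13 of 14 libraries. In knockout skin they summed to 11.3 to 15 CPM with DMSO and to 17.0 and 19.9 CPM with imiquimod, so the groups did not overlap, and 0 of the 7 tested passed in either direction (median 0.64). In Cre-negative skin they summed to 26.7 to 33.3 CPM with DMSO and 11.0 and 27.8 CPM with imiquimod. There 0 were higher and 1, Cd2, lower (median −0.88), and 8.15% of all genes rose and 10.1% fell. In WT skin, 0 were higher and 1, Cd3e, lower (median −0.91), where 9.59% of all genes rose and 11.8% fell. The knockout response was higher than the Cre-negative one for 1 of the 7, Cd2, and lower for 0, with a median of 1.78. Over all genes it was higher for 14% and lower for 9.63%, so 1 of 7 was near the share of all genes. Neutrophil markers, given above, rose with imiquimod in both controls. Their sum was already high in knockout skin with DMSO, where Batf was at 2.23 to 3.57 CPM. In knockout skin too imiquimod raised 7 of these 10 markers and lowered 0, with a median of 4.12, where 8.56% of all genes rose and 2.52% fell. The part of these cells in the result was not tested.

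**Figure D3:**
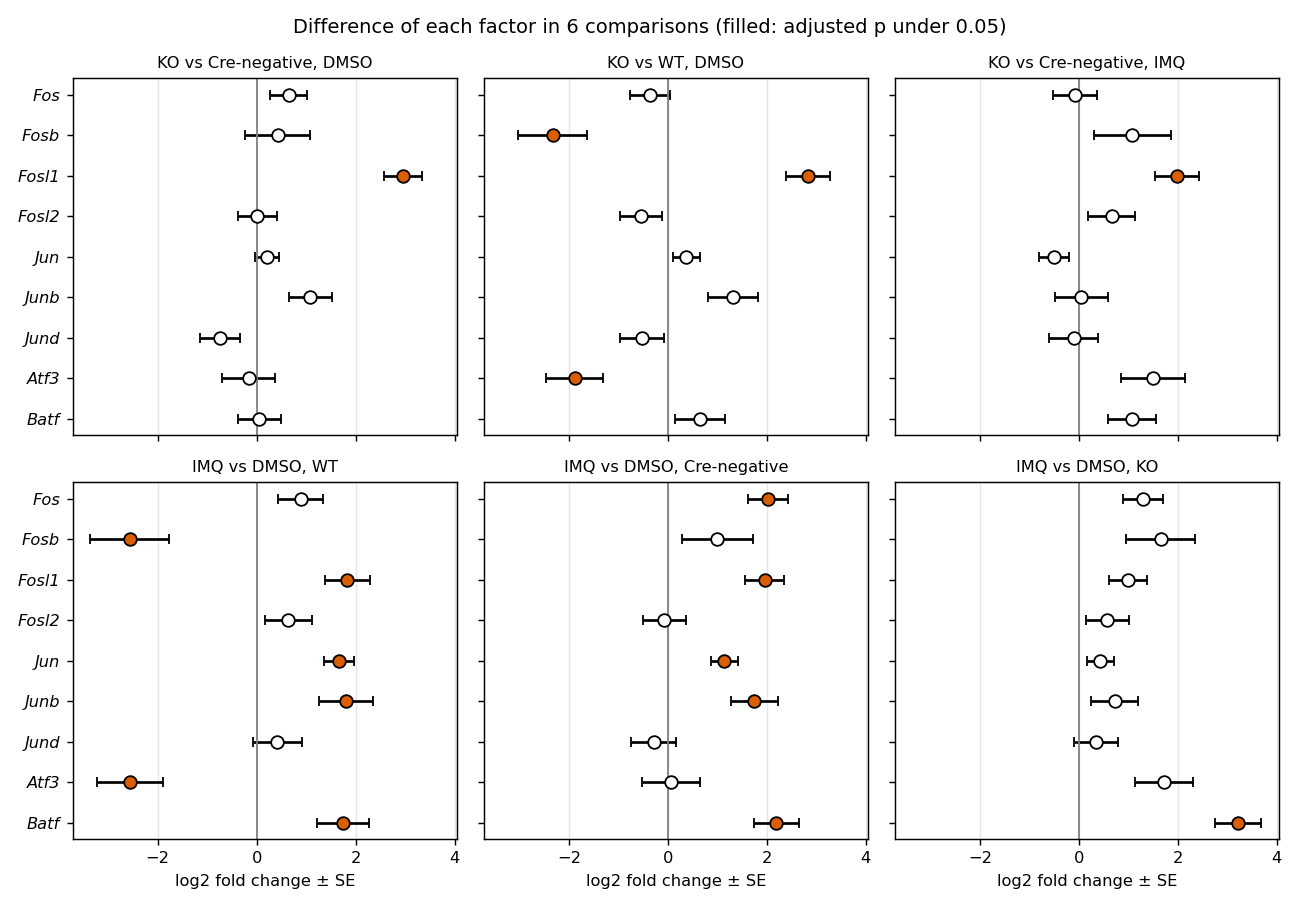
Log2 fold change (points) ± SE (bars) of each gene in 6 comparisons, where filled points have an edgeR adjusted p under 0.05. Fosl1 is the 1 filled point in both panels of knockout against Cre-negative skin, and Batf the 1 filled point in the panel of the imiquimod response of the knockout.

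Shares within a family do not depend on how libraries are scaled. Fosl1 took 1.66% to 3.67% of the Fos-family tags (Fos, Fosb, Fosl1 and Fosl2 together) in the 5 control libraries with DMSO. It took 12.6% to 19.9% in the 5 knockout libraries, with or without imiquimod. Imiquimod gave 3.97% and 4.73% in WT and 3.75% and 14.5% in Cre-negative skin, the last being the library with the highest 18S share and 1 that reached the knockout range. The share of Fos rose from 10.9% to 12.3% of the family in Cre-negative skin with DMSO to 31.2% and 38.3% with imiquimod, but was 13.7% and 15.6% against 16.5% and 18.4% in WT skin. In the knockout the share of Fos was 30.5%, 13.1% and 6.35% with DMSO and 18.8% and 22.2% with imiquimod, so the groups overlapped. The Fos family as a whole was at 172 and 257 CPM in WT, 110 to 166 CPM in Cre-negative and 121 to 198 CPM in knockout skin with DMSO. With imiquimod it was at 316 and 357 CPM in WT, 249 and 135 CPM in Cre-negative and 311 and 286 CPM in knockout skin.

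In the Jun family (Jun, Junb and Jund together) the share of Jund was lower in every imiquimod and knockout library than in any control library with DMSO. It was 27.3% to 35.9% in Cre-negative and 28.1% and 34.1% in WT skin with DMSO, and 9.87% to 17.7% in knockout skin with DMSO. With imiquimod it was 6.86% and 14.2% in Cre-negative, 11.2% and 22.3% in WT and 7.37% and 16.3% in knockout skin. Over the same groups the Jun family rose from 521 to 582 CPM in Cre-negative skin with DMSO to 935 and 1523 CPM with imiquimod. No test was made of these shares.

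**Figure D4:**
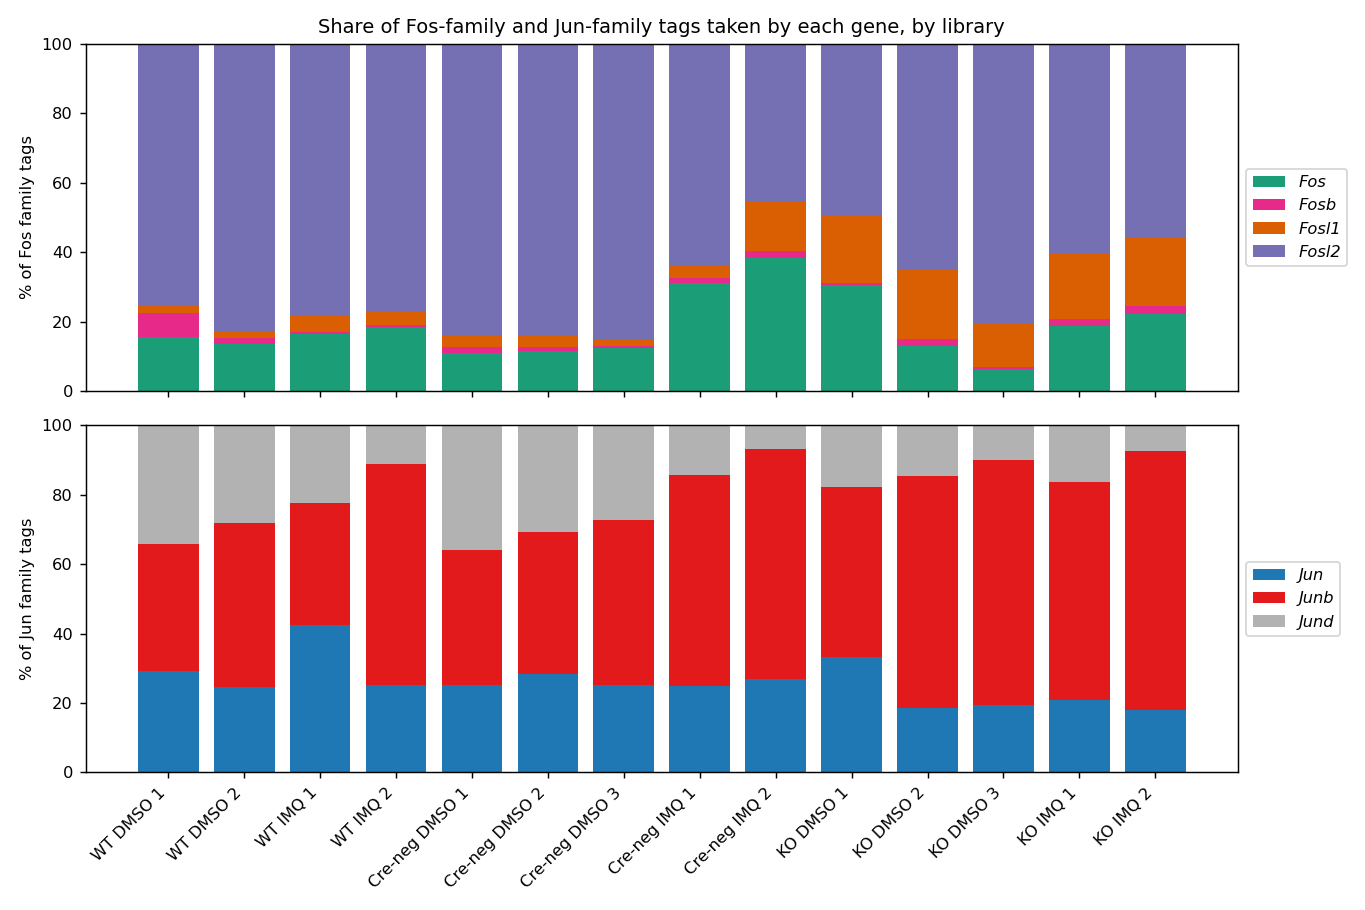
Share of Fos-family tags (top) and of Jun-family tags (bottom) taken by each gene in each of the 14 libraries, in percent. Fosl1 takes 12.6% to 19.9% of the Fos-family tags in the 5 knockout libraries, and the share of Jund is 27.3% or more only in the 5 control libraries with DMSO.

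The genes most like 8 of the 9 factors were found among 9376 genes of at least 5 CPM, as the smallest root mean square difference between centred log2 CPM values over the 14 libraries. For Fosl1 they were Areg (0.49 on the log2 scale), Slc20a1 (0.53) and Tmem252 (0.58), against a median of 1.56 over all genes compared. For Junb they were Nus1 (0.26), Tgm1 (0.28) and Alas1 (0.35), against 1.05. For Batf they were Milr1 (0.40), Gpr65 (0.48) and Itgam (0.50), against 1.43. Jun was most like Osbpl2 (0.28). The nearest patterns to Atf3 and Fosb were farther away, at 0.60 for Tbkbp1 and 0.87 for Zfp991. Fosl2 was nearest to Srrm2 (0.28) and Jund to Crybg3 (0.27). These are descriptions of libraries that share groups, depth and RNA quality.

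Upstream of AP-1 lie the kinases and other members of the MAP kinase cascades. Of 35 tested, 2 were higher and 2 lower in knockout than in Cre-negative skin with DMSO, where 14% and 15.7% of all genes were called, with a median of 0.11 beside −0.06 over all genes. Map3k1, which encodes MEKK1, a kinase of the JNK pathway, was lower (−1.77 ± 0.30, adjusted p = 0.00084), as was Map3k4 (−1.16 ± 0.34, adjusted p = 0.020). Map3k6 was higher (2.21 ± 0.45, adjusted p = 0.0028), and so was Elk3, a partner of serum response factor (1.53 ± 0.45, adjusted p = 0.022). Imiquimod raised 2 and lowered 1 in each control. Of all genes, 8.15% rose and 10.1% fell in Cre-negative skin, and 9.59% and 11.8% in WT skin. The median of the 35 was −0.12 in Cre-negative skin and 0.40 beside −0.09 over all genes in WT skin. The 1 lowered was Map3k1 in Cre-negative (−1.27 ± 0.34, adjusted p = 0.020) and WT skin (−1.09 ± 0.36, adjusted p = 0.044). The knockout response was above that of Cre-negative skin for 3 (Map3k1, Map3k2 and Mapk12) and below it for 2 (Mapk13 and Map3k6), where 14% and 9.63% of all genes were called. It was above that of WT skin for 3 (Map3k1, Map3k2 and Braf) and below it for 4 (Mapk13, Map3k6, Map2k2 and Mapk11), where 15.1% and 12.1% were called.

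Among 17 phosphatases and feedback inhibitors of MAP kinases, 4 were higher and 0 lower in knockout than in Cre-negative skin with DMSO. Over all genes, 14% were higher and 15.7% lower. The 4 were Dusp9 (5.95 ± 0.87, adjusted p = 0.00030), Dusp14 (1.82 ± 0.33, adjusted p = 0.0014), Dusp4 (3.72 ± 0.70, adjusted p = 0.0017) and Dusp5 (1.21 ± 0.40, adjusted p = 0.037). With imiquimod 3 of the 17 were higher and 0 lower, where 11.6% and 6.33% of all genes were called. Among the 3 was the receptor kinase inhibitor Spry2 (2.08 ± 0.29, adjusted p = 0.00068). Spry2 rose with imiquimod in the knockout (1.54 ± 0.26, adjusted p = 0.0019) and fell in Cre-negative skin (−1.14 ± 0.27, adjusted p = 0.011), and the difference between these responses passed the test (2.68 ± 0.37, adjusted p = 0.00081). Spry2 was the 1 gene of the 17 that was higher for this difference, and 2 were lower. Of all genes, 14% were higher and 9.63% lower. The median of the 17 was 0.67 beside 0.11 over all genes.

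The list of ubiquitin ligases known to act on Jun or Fos proteins held 16 subunits, and several of these ligases need NEDD8 on their cullin. Between knockout and Cre-negative skin with DMSO 3 were higher and 0 lower, where 14% and 15.7% of all genes were called. The 3 were Smurf1 (1.32 ± 0.27, adjusted p = 0.0032), Dda1 (1.08 ± 0.29, adjusted p = 0.013) and Cul4b (0.81 ± 0.28, adjusted p = 0.041). Smurf1 is a HECT ligase, not a cullin ligase. Cop1, which guides Jun to a CUL4 ligase, was at −0.55 ± 0.23 (adjusted p = 0.091). With imiquimod 1 was higher, Trib1 (1.46 ± 0.36, adjusted p = 0.015), and 1 lower, Rbx1 (−1.03 ± 0.32, adjusted p = 0.039). Over all genes 11.6% were higher and 6.33% lower there. In WT and knockout skin 0 of the 16 passed the test with imiquimod, with medians of 0.40 and −0.41. Of all genes, 9.59% rose and 11.8% fell in WT skin, and 8.56% and 2.52% in knockout skin. In Cre-negative skin imiquimod raised 1 of the 16 and lowered 0 (median 0.22), where 8.15% of all genes rose and 10.1% fell. The knockout response was below that of WT skin for Dda1, Itch and Cul4a (3 of 16) and above it for 0. Over all genes it was below for 12.1% and above for 15.1%. Against the Cre-negative response it was below for 1 of the 16 and above for 0, where 9.63% and 14% of all genes were called. RNA levels of these ligase genes say nothing of the amount of AP-1 protein.

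Of 29 other AP-1, ATF, CREB and MAF factors, 4 were higher and 5 lower in knockout than in Cre-negative skin with DMSO. Over all genes, 14% were higher and 15.7% lower. Bach2, a repressor that pairs with small MAF proteins, was lower (−2.88 ± 0.38, adjusted p = 0.00015), as were Mafa (−3.07 ± 0.51, adjusted p = 0.00070) and Maf (−1.69 ± 0.28, adjusted p = 0.00073). Nfe2l2, which encodes the antioxidant factor NRF2, was higher (1.55 ± 0.27, adjusted p = 0.0010). Bach2 and Mafa also fell with imiquimod in Cre-negative (−3.56 ± 0.47, adjusted p = 0.00032, and −3.68 ± 0.63, adjusted p = 0.0017) and WT skin, and Nfe2l2 rose in both (1.23 ± 0.29, adjusted p = 0.011, in Cre-negative skin). In knockout skin imiquimod raised 3 and lowered 0 of the list, against 8.56% and 2.52% of all genes. Jdp2, a Jun-pairing repressor, rose by 3.29 ± 0.47 (adjusted p = 0.00069) and Crem by 2.22 ± 0.43 (adjusted p = 0.0052). The difference of the Jdp2 response from that of Cre-negative skin was 3.88 ± 0.69 (adjusted p = 0.0027).

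The 33 other immediate early genes gave 8 higher and 5 lower in knockout than in Cre-negative skin with DMSO, with a median of 0.16. Over all genes, 14% were higher and 15.7% lower. Phlda1 (4.52 ± 0.38, adjusted p = 5.5e-06) and Ier3 (2.48 ± 0.31, adjusted p = 0.00010) were higher and the clock gene Per1 was lower (−1.64 ± 0.26, adjusted p = 0.00058). In knockout skin imiquimod raised 12 of the 33 and lowered 0, against 8.56% and 2.52% of all genes, with a median of 0.87. Among the 12 were Btg2 (2.50 ± 0.28, adjusted p = 0.00015), the stress genes Gadd45a (2.70 ± 0.35, adjusted p = 0.00037) and Gadd45b (2.08 ± 0.30, adjusted p = 0.00073), and Klf2 (3.10 ± 0.46, adjusted p = 0.00091). In Cre-negative skin 8 rose and 3 fell with imiquimod, against 8.15% and 10.1% of all genes. In WT skin 7 rose and 2 fell, against 9.59% and 11.8%. The response was larger in the knockout than in Cre-negative skin for 12 of the 33 and smaller for 6, where 14% and 9.63% of all genes were called.

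Textbook targets of AP-1 in epidermis were mostly higher in knockout skin with DMSO and in the imiquimod libraries of both controls. Of 28 tested, 21 were higher and 0 lower in knockout than in Cre-negative skin with DMSO, against 14% and 15.7% of all genes. Their median was 3.30 beside −0.06 over all genes. The wound keratins Krt6a (6.78 ± 0.44, adjusted p = 1.3e-06) and Krt16 (6.06 ± 0.58, adjusted p = 1.3e-05), the EGF receptor ligand Hbegf (4.50 ± 0.34, adjusted p = 2.8e-06) and the envelope protein Sprr1b (4.76 ± 0.42, adjusted p = 6.8e-06) had the smallest p-values. Imiquimod raised 18 of the 28 in Cre-negative and 17 in WT skin, where 8.15% and 9.59% of all genes rose, with 0 lower in each. In knockout skin it raised 8 and lowered 0, against 8.56% and 2.52% of all genes. The 8 were led by the proteases and protease receptor Mmp10 (4.80 ± 0.62, adjusted p = 0.00037), Plaur (4.13 ± 0.56, adjusted p = 0.00051) and Mmp13 (3.93 ± 0.55, adjusted p = 0.00058). Between knockout and Cre-negative skin with imiquimod, 11 were higher and 1 lower, against 11.6% and 6.33% of all genes. The median there was 0.71 beside 0.02 over all genes. The knockout response was smaller than the Cre-negative one for 8 targets and larger for 0, against 9.63% and 14% of all genes. Krt6a led these 8 targets (−7.36 ± 0.61, adjusted p = 6.9e-05). The list was written with earlier results of these libraries known, several of its genes respond to other factors too, and neutrophil markers were also higher in the knockout and imiquimod groups than in the controls with DMSO. Whether AP-1 acted on these genes was not tested.

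The call of Fosl1 in knockout skin with DMSO held in all 14 other settings against Cre-negative skin (2.64 to 3.73) and in all 13 against WT skin (2.41 to 3.16). Batf in knockout skin with imiquimod held in all 13 (2.43 to 3.96), and Fos in Cre-negative skin with imiquimod in all 13 (1.48 to 2.36). These were 4 of the 20 calls made for the 9 genes. The other 16 were lost in at least 1 setting, and 0 of the 20 changed sign.

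**Figure D5:**
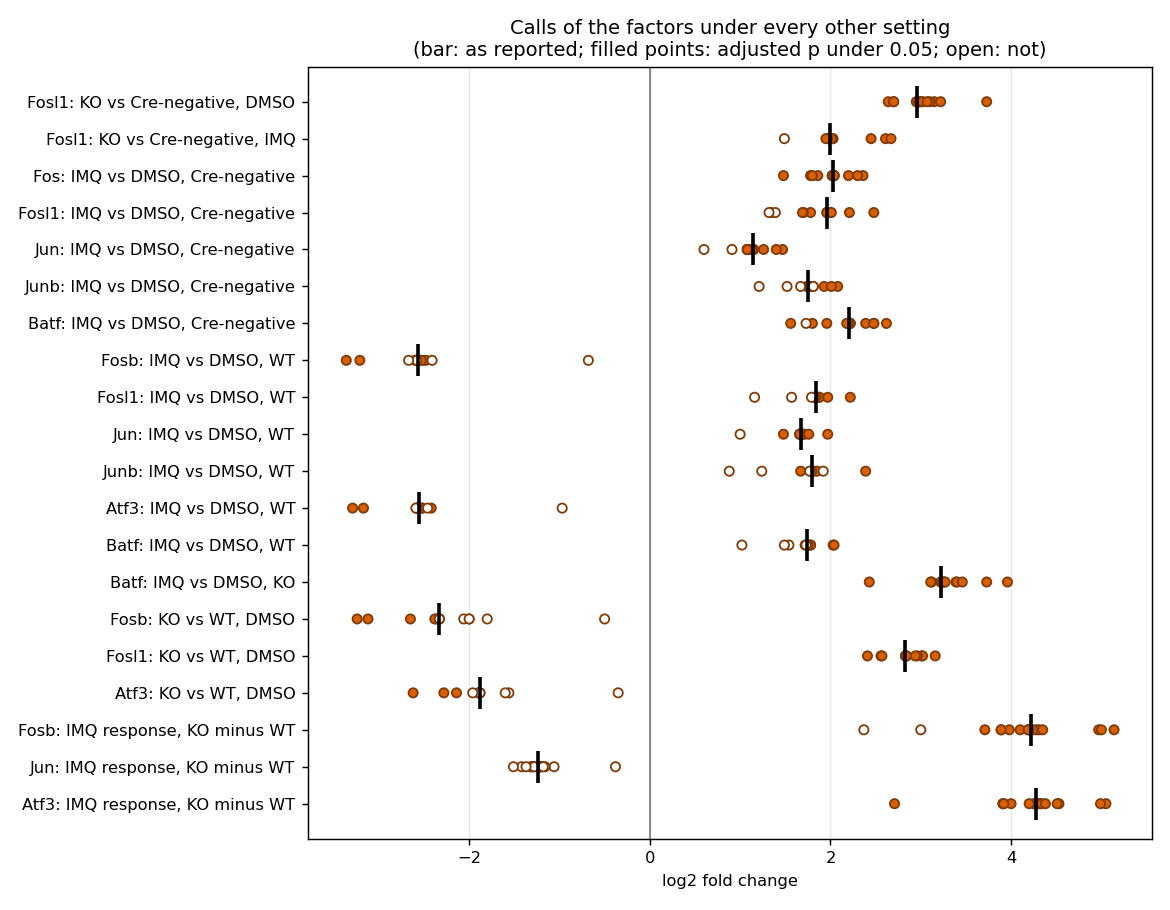
Log2 fold change of the 20 calls made for the 9 genes as reported (bars) and under every other setting (points, filled where the adjusted p was under 0.05). The 4 calls with filled points only are Fosl1 in knockout skin with DMSO against each control, Fos with imiquimod in Cre-negative skin and Batf with imiquimod in knockout skin.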

How the data were processed

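Raw read counts per gene for 14 mouse skin libraries were deposited by the authors in 1 table, and these counts were the unit used. Per the submitters' processing notes, the tools were STAR, featureCounts and DESeq2, and 2 builds are listed, GRCm38 and GRCm39, with no role for any of them. Exon positions in the table are those of GRCm39. How strand and multi-mapped reads were treated is not given in the sources used here. The gene length column, in bases per the file headers, is listed as an other unit and was not used for levels.

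Low-count genes were filtered with filterByExpr and library sizes were adjusted by TMM. A single quasi-likelihood model held a mean for each group and all 14 libraries (edgeR 4.0.16, R 4.3.3). Comparisons were contrasts of this model, with Benjamini-Hochberg adjustment over the 16027 genes tested and a threshold of 0.05. Each standard error is the fold change divided by the root of its F statistic. The procedure was tested on simulated data. Library depth ran from 5552954 to 34362477 counts, and duplicate reads of 1 molecule could not be removed. The other settings were median-of-ratios (RLE) scaling, library size alone, no filter on low counts, DESeq2 1.42.0, a fit of only the groups compared, a replicate block, a sex term, a fit without the 2 libraries highest in 18S RNA, and each library left out. The members, the gene lists and the comparison of knockout with WT responses were chosen with earlier results of these data known. Named genes were all 9 members, up to 4 genes per list by smallest p-value in a comparison, the 3 genes most like each member, and any gene in a count of 5 or fewer. Egr1, Nr4a1 and Dusp1 were named after their values were seen. Figures were drawn with matplotlib 3.10.9. The gene whose pattern was most like that of Fos is not reported here.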

Additional observations from a re-analysis of the deposited data

Results flagged for a closer look

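Imiquimod values of opposite sign were found for Fosb and Atf3 in WT and knockout skin. For Fosb the log2 difference between imiquimod and DMSO was −2.57 in WT, 1.0 in Cre-negative and 1.66 in knockout skin, of which the WT value alone passed the test. The difference of the knockout from the WT response was 4.22 (edgeR adjusted p = 0.012). Whether the Fosb responses of WT and Cre-negative skin differ was not tested. For Atf3 the values were −2.56 in WT and 1.72 in knockout skin, of which the first passed the test, and the difference of these responses was 4.28 (edgeR adjusted p = 0.0049). Without WT DMSO replicate 1 the WT values were −0.68 for Fosb and −0.97 for Atf3, and the differences between responses were 2.37 and 2.71.

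The Jun response was smaller in knockout than in WT skin, with a difference of −1.24 on the log2 scale (edgeR adjusted p = 0.041), and this call was lost in 13 of 17 other settings.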

How the results depend on the processing

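Of the 20 calls made for the 9 genes, 4 held in every other setting and 16 were lost in at least 1. No call changed sign, and the cause of the losses was not tested, except that a library left out or a smaller fit means fewer samples. Over all values of the 9 genes and all settings, 860 kept their direction and their side of the threshold, 64 lost the call, 24 gained one and 60, none of them a call, changed sign. Library size alone moved the median log2 change of all genes by over 0.1 in every comparison, for example from −0.06 to −0.63 for imiquimod in Cre-negative skin and from 0.11 to 0.84 for the knockout minus the Cre-negative response. The share of calls that were higher moved with it, so that 537 genes rose and 3141 fell with imiquimod in Cre-negative skin. With library size alone the sign changed to give Fosl2 at −0.28, Jun at −0.15, Batf at −0.33 for knockout against Cre-negative skin under DMSO, Fos at 0.28, Jund at 0.18 for knockout against Cre-negative skin with imiquimod and Atf3 at −0.58 for imiquimod in Cre-negative skin. That setting also gave Fosl2 at −0.01, Jund at −0.27 for imiquimod in WT skin, Fos at 0.08, Jun at 0.02 for the knockout minus the Cre-negative response and Jun at −0.07 for knockout against WT skin with DMSO. It further gave Fosl2 at 0.70, Jund at 0.76 for the knockout minus the WT response. With a sex term the sign changed to give Atf3 at 0.10, Batf at −0.40 for knockout against Cre-negative skin under DMSO, Atf3 at −0.05 for imiquimod in Cre-negative skin and Fosl1 at −0.04, Jund at −0.02 for imiquimod in knockout skin. That setting also gave Fosb at −0.27 for the knockout minus the Cre-negative response. Without the libraries highest in 18S RNA the sign changed to give Batf at −0.08 for knockout against Cre-negative skin under DMSO, Junb at −0.23 for knockout against Cre-negative skin with imiquimod and Fosl2 at 0.53, Jund at 0.41, Atf3 at −0.62 for imiquimod in Cre-negative skin. That setting also gave Fosl2 at −0.28, Jund at −0.19 for the knockout minus the Cre-negative response. With the replicate block the sign changed to give Fosl2 at −0.03 for knockout against Cre-negative skin under DMSO, Junb at −0.07 for knockout against Cre-negative skin with imiquimod and Fosl2 at 0.03, Atf3 at −0.02 for imiquimod in Cre-negative skin. That setting also gave Fosl2 at 0.09 for the knockout minus the WT response.

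With a sex term the count of genes called became 1448 (from 4752) for knockout against Cre-negative skin under DMSO, 210 (from 1776) for imiquimod in knockout skin, 1469 (from 3785) for the knockout minus the Cre-negative response and 1142 (from 4349) for the knockout minus the WT response. With the 18S-high libraries left out the count of genes called became 1762 (from 2921) for imiquimod in Cre-negative skin. With a fit of only the groups compared the count of genes called became 1863 (from 3433) for imiquimod in WT skin and 1028 (from 1776) for imiquimod in knockout skin. The sex term is set by Cre-negative DMSO skin alone, the 1 group with libraries of both sexes. The number of the 9 genes called moved for knockout against Cre-negative skin under DMSO from 1 to 2 with no filter on low counts, the 18S-high libraries left out, DESeq2 and a fit of only the groups compared, for knockout against Cre-negative skin with imiquimod from 1 to 2 with library size alone and no filter on low counts and for imiquimod in Cre-negative skin from 5 to 3 with library size alone. It moved for imiquimod in WT skin from 6 to 2 with library size alone and a fit of only the groups compared and for imiquimod in knockout skin from 1 to 2 with library size alone, the 18S-high libraries left out and a fit of only the groups compared, 4 with no filter on low counts and 3 with DESeq2. It also moved for the knockout minus the Cre-negative response from 0 to 2 with library size alone, for knockout against WT skin with DMSO from 3 to 1 with the replicate block and a fit of only the groups compared and for the knockout minus the WT response from 3 to 0 with a sex term. With single libraries left out, the count of genes called ran from 3123 to 4294 for knockout against Cre-negative skin under DMSO, from 796 to 2360 for knockout against Cre-negative skin with imiquimod, from 1272 to 2238 for imiquimod in Cre-negative skin, from 1092 to 3531 for imiquimod in WT skin, from 339 to 1729 for imiquimod in knockout skin, from 1174 to 3733 for the knockout minus the Cre-negative response, from 2054 to 3687 for knockout against WT skin with DMSO and from 1897 to 4496 for the knockout minus the WT response. The count among the 9 genes ran from 1 to 2 for knockout against Cre-negative skin under DMSO, from 0 to 1 for knockout against Cre-negative skin with imiquimod, from 3 to 4 for imiquimod in Cre-negative skin, from 2 to 3 for imiquimod in WT skin, from 1 to 2 for imiquimod in knockout skin, from 1 to 3 for knockout against WT skin with DMSO and from 1 to 3 for the knockout minus the WT response. For knockout against Cre-negative skin under DMSO, leaving out single libraries gave Fosb from −0.49 to 0.75, Fosl2 from −0.28 to 0.33, Atf3 from −0.41 to 0.24 and Batf from −0.18 to 0.34. For knockout against Cre-negative skin with imiquimod, leaving out single libraries gave Fos from −0.31 to 0.17, Junb from −0.32 to 0.33 and Jund from −0.70 to 0.94. For imiquimod in Cre-negative skin, leaving out single libraries gave Fosl2 from −0.82 to 0.47, Jund from −1.31 to 0.34 and Atf3 from −0.68 to 0.61. For imiquimod in knockout skin, leaving out single libraries gave Jund from −0.09 to 0.69. For knockout against WT skin with DMSO, leaving out single libraries gave Fos from −0.75 to 0.10. For the knockout minus the WT response, leaving out single libraries gave Fos from −0.08 to 0.82, Fosl2 from −0.37 to 0.24 and Jund from −0.51 to 0.26. Where a group of 2 loses a library, the lone one is assumed to vary like the other groups.

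The replicate block ended the calls of Fosb (−1.80, adjusted p = 0.102) and Atf3 (−1.56, adjusted p = 0.084) for knockout against WT skin with DMSO and of Jun for the knockout minus the WT response (−1.30, adjusted p = 0.050), and changed no other call of the 9 genes. Whether the numbers pair the samples was left undecided. Of 31 pairs of libraries with the same number in different groups, 11 had a correlation of deviations over 0.1. Their median was 0.06 and their range −0.32 to 0.49. Of 50 pairs with different numbers 13 were over 0.1, with a median of −0.01 and a range of −0.49 to 0.37. Deviations were taken from the group mean, so those of a group of 2 mirror each other, and the check cannot decide. At the lowest depth 1 tag weighs most in Fosb, where a library had as few as 3 tags.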
